A study of Macaca fascicularis with 9 samples.

Results

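Oligodendrocyte cluster 3 is 1 of the 7 clusters that the authors' deposited annotation assigns to oligodendrocytes, the cells that wrap axons of the central nervous system in myelin. Its nuclei were taken as those with the cell type oligodendrocyte and the cluster number 3 in that annotation, which gave 7209 of 61578 oligodendrocyte nuclei and of 79994 nuclei in all. The nuclei came from the thalamus of 9 female cynomolgus monkeys, 1 single-nucleus library per animal, and no genetic change is named for any of them. The 3 ASO animals had received 1 intrathecal dose of 4 mg of an antisense oligonucleotide against MALAT1. The 3 OTV animals had received 4 biweekly intravenous doses of the oligonucleotide carried by a transport vehicle (OTV:MALAT1) at 30 mpk. The 3 saline animals had received 4 intravenous doses of saline on the same schedule. Tissue was collected 2 weeks after the last dose in every group. No group received saline by the intrathecal route and the number of doses differed, so route, dosing and compound cannot be told apart between the ASO animals and the rest. Ages and library batches are not given in the labels.

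Mature oligodendrocytes are not uniform: they differ in their levels of adhesion molecules, of surface proteins such as OPALIN and of cytoskeletal genes, and they pass through a premyelinating stage marked by ENPP6. MALAT1, an abundant noncoding transcript, is retained in nuclei, where RNase H can cut it once an antisense oligonucleotide has paired with it. Transport vehicles of this kind bind the transferrin receptor, encoded by TFRC, to cross the vessels of the brain.

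Levels below are UMI counts (unique molecules) summed over the nuclei of an animal and scaled to a common total (CPM, counts per 1e6 UMIs of that sum). Cluster 3 held 1022, 1049 and 65 nuclei in saline animals 1, 2 and 3, 1167, 1600 and 317 in the ASO animals and 856, 349 and 784 in the OTV animals. The sums ranged from 299673 UMIs in saline animal 3 to 14461343 UMIs in ASO animal 2, and median UMIs per nucleus ranged from 3149 in OTV animal 3 to 8707 in ASO animal 2. Single low counts in saline animal 3 are therefore the least precise. The median doublet score was higher in cluster 3 than in the other oligodendrocytes in all 9 animals, most of all in OTV animal 2 at 0.101 against 0.00295. In the other 8 animals it lay between 0.00067 and 0.00849 in cluster 3 and between 0.000321 and 0.00236 in the others. Of 79232 barcode sequences 760 occurred in more than 1 animal, among them those of 134 cluster 3 nuclei. Astrocytes of ASO animal 3, saline animal 3 and saline animal 1 held LHX2, a forebrain patterning factor, at 95.9, 87.3 and 32.8 CPM, against at most 3.29 CPM in the other 6 animals. IRX5, a patterning factor of the Iroquois family, was at 0 in astrocytes of ASO animal 3 and saline animal 3, although the labels give thalamus for all 9 animals.

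The label was checked against marker genes. MBP was not analysed here, and the other 6 oligodendrocyte markers, among them MOG, MAG, MOBP, CNP and ST18, were all present. Together they made up 0.530 to 0.731% of cluster 3 UMIs in the saline animals, 0.655 to 0.930% in the ASO animals and 0.565 to 0.705% in the OTV animals. The 8 markers of oligodendrocyte precursors (OPCs) summed to between 0.0192 and 0.0674% in the saline animals, with the highest value in saline animal 3, to 0.0197 to 0.0278% in the ASO animals and to 0.0239 to 0.0292% in the OTV animals. The 8 astrocyte markers stayed between 0.0138 and 0.0304%, the 7 myeloid markers between 0.00169 and 0.00467%, the 9 neuron markers between 0.0592 and 0.103% and the 8 vascular and T cell markers between 0.00471 and 0.00780% over all 9 animals. RELN had by far the highest mean level of the 9 neuron markers, at 639 CPM in cluster 3, and SYT1 came next at 61.7 CPM. No marker was at 0 in all animals.

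Cluster 3 was set apart from the other oligodendrocytes mainly by what it held less of. A gene was counted as set apart when the median over animals of the log2 ratio of CPM + 1, cluster 3 over all other oligodendrocyte nuclei of the same animal, was at least 1 in size with the same sign in every animal, and the mean was at least 20 CPM in the higher of the pair. Of 6348 features at that level 75 met the rule, 3 of them higher (0.0473%) and 72 lower (1.13%), while 1147 had the same sign in every animal. These ratios are a description with no test, since the clusters were made from the expression of these same nuclei.

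**Figure D1:**
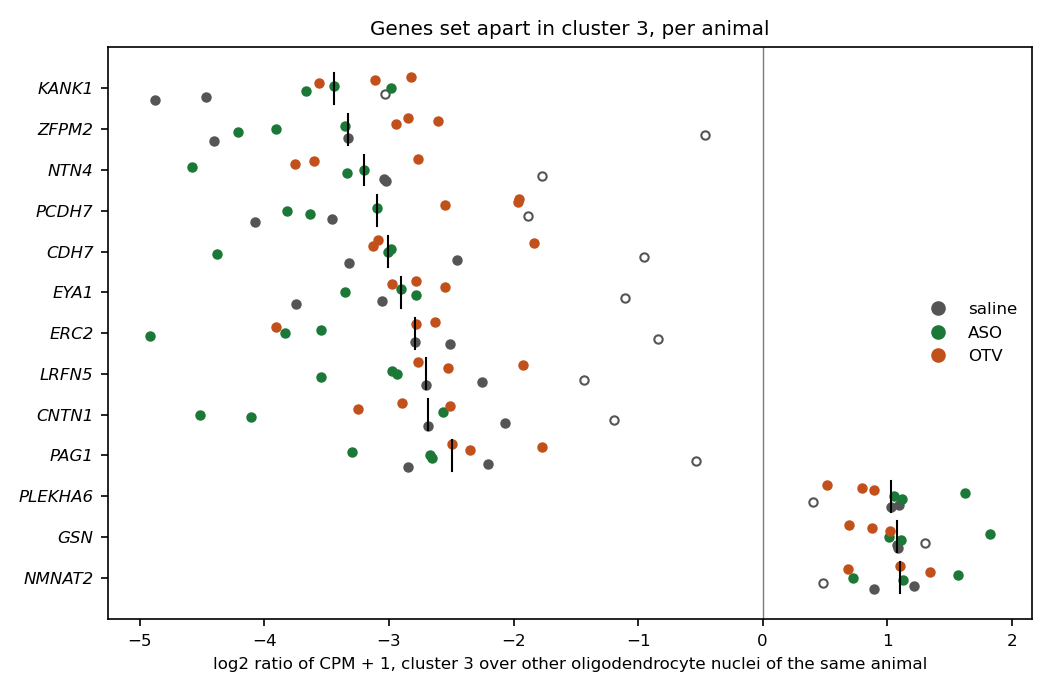
Log2 ratio of CPM + 1 in cluster 3 over all other oligodendrocyte nuclei of the same animal, for the 13 named genes that set the cluster apart. Each point is 1 animal, the black line is the median and the open grey circle is saline animal 3, which lies nearest to 0 for ZFPM2, CNTN1 and, in all, 52 of the 72 lower genes.

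KANK1 had the lowest median ratio of the set-apart genes. This adaptor that links integrin adhesions to the microtubule cortex had a median log2 ratio of -3.44 (lowest -4.88, highest -2.82) and stood at 13.6 ± 7.8 CPM in cluster 3 and 168 ± 73.9 CPM in the other oligodendrocytes (SD, n = 9 animals each). Its lowest, median and highest levels were 6.34, 10.7 and 30 CPM in cluster 3 and 57.8, 188 and 253 CPM in the other oligodendrocytes, so the ranges did not overlap. CNTN1, a GPI-anchored adhesion molecule of axons and oligodendrocytes, had a median ratio of -2.69 (lowest -4.51, highest -1.19). Its levels were 209, 235 and 297 CPM in cluster 3 of the saline animals, 60.6, 36.6 and 154 CPM in the ASO animals and 135, 179 and 118 CPM in the OTV animals, against 679, 989 and 1354 CPM as the lowest, median and highest in the other oligodendrocytes. The CNTN1 ranges did not overlap either, and the difference was smallest in saline animal 3 and largest in ASO animal 2. PCDH7 and CDH7, both cadherins, had median ratios of -3.10 (lowest -4.08, highest -1.88) and -3.01 (lowest -4.38, highest -0.95), with means of 39 against 237 CPM and 10 against 58.8 CPM in cluster 3 against the rest.

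ERC2 and LRFN5, genes known from synapses, were among the 10 lowest ratios. ERC2, a scaffold of the presynaptic active zone, had a median ratio of -2.79 (lowest -4.92, highest -0.84) and means of 100.4 against 561 CPM. LRFN5, a synaptic adhesion molecule, had a median ratio of -2.70 (lowest -3.55, highest -1.43) and means of 50.4 against 247 CPM. Of 14 genes on a list of adhesion and axon contact genes that reached 20 CPM, 3 had a median ratio of -1 or lower, CNTN1, NLGN1 and CADM2, and the list's median was -0.21 against 0.03 over all features at that level. NLGN1, a neuroligin, stood at 412 against 1429.7 CPM with a ratio of -2.40 (lowest -3.29, highest -0.27), and CADM2, an immunoglobulin-type adhesion molecule, at 1129 against 2726 CPM with a ratio of -1.58 (lowest -2.18, highest -0.27).

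ZFPM2 and NTN4 had the lowest ratios after KANK1. ZFPM2, a zinc-finger partner of GATA factors, had a median ratio of -3.33 (lowest -4.41, highest -0.47) and means of 42.9 against 282 CPM. NTN4, a secreted netrin, had -3.20 (lowest -4.58, highest -1.77) and 9.88 against 72.1 CPM. EYA1, a transcriptional coactivator with phosphatase activity, had -2.90 (lowest -3.74, highest -1.11) and 18 against 109 CPM. The ZFPM2 ratio nearest to 0 came from saline animal 3. PAG1, a membrane adaptor that recruits an inhibitory kinase of the SRC family, had -2.49 (lowest -3.29, highest -0.54) and 7.92 against 29.4 CPM.

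The 3 higher genes were GSN, NMNAT2 and PLEKHA6. GSN, the actin-severing protein gelsolin, had a median ratio of 1.08 (lowest 0.69, highest 1.83) and stood at 495 ± 132 CPM in cluster 3 and 238 ± 90.3 CPM in the other oligodendrocytes (SD, n = 9 animals each). GSN in cluster 3 was 455, 535 and 174 CPM in the saline animals, 566, 572 and 446 CPM in the ASO animals and 536, 611 and 557 CPM in the OTV animals. Saline animal 3 was the low value, and in it the other oligodendrocytes were low as well, at 69.8 CPM, so its ratio of 1.30 lay within the range of the rest. NMNAT2, an enzyme of NAD synthesis that axons need to survive, had a ratio of 1.10 (lowest 0.48, highest 1.57) and stood at 257 ± 88.9 CPM in cluster 3 and 132 ± 62.9 CPM in the other oligodendrocytes (SD, n = 9 animals each). PLEKHA6, a protein with a lipid-binding pleckstrin homology domain, had a ratio of 1.03 (lowest 0.40, highest 1.62) and means of 99.1 against 51.2 CPM.

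The thresholds cut through a continuum. Just inside the rule on the lower side were KIAA0930 at -1.05 and RHOQ at -1.04, and just outside it SVEP1 at -0.99 and CEP85L at -0.98. On the higher side PLEKHA6 at 1.03 lay just inside, and ENPP6 at 0.99 and C3orf70 at 0.98 just outside. ENPP6, the choline phosphodiesterase of premyelinating oligodendrocytes, was higher in cluster 3 in all 9 animals and stood at 179 ± 31.2 CPM in cluster 3 and 86.3 ± 21.4 CPM in the other oligodendrocytes (SD, n = 9 animals each). The genes that follow these in size, named after their values were seen, were SPON1 at 0.93 (lowest 0.77, highest 1.48), ARHGEF37 at 0.92 (lowest 0.66, highest 1.28) and EFR3B at 0.91 (lowest 0.75, highest 1.33). No list of myelin, transcription factor, cholesterol, iron or heat shock genes had a member at 20 CPM past the threshold of 1. The same held for interferon, p53, ribosomal, respiratory and mitochondrial genes, newly formed and mature state genes, and astrocyte and vascular and T cell markers. Some lists had few members at that level: 1 vascular and T cell, 2 interferon, 2 p53, 3 astrocyte and 4 heat shock genes. No myeloid marker reached 20 CPM, so that list could not be compared. The myelin list had a median ratio of 0.04 over its 16 members at 20 CPM. The newly formed list, which holds ENPP6, had a median ratio of 0.03 over its 7 members at 20 CPM, against 0.03 over all features. SYT1 among the neuron markers, at -1.87 (lowest -3.59, highest -0.79), and SOX6 among the OPC markers, at -1.18 (lowest -2.39, highest -0.40), were lower. The 3 neuron markers at 20 CPM had a list median of 0.16, with RELN at 0.16 (lowest -0.02, highest 0.25), and the 4 OPC markers one of -0.21.

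Saline animal 3 stood apart in how far cluster 3 differed from its other oligodendrocytes. The median ratio over the 72 lower genes was -0.68 in that animal and between -1.47 and -1.96 in the other 8, and for 52 of the 72 genes its ratio was the one nearest to 0. It had 65 nuclei in the cluster, the highest summed OPC markers and SOX6 at 147 CPM against 37.6 CPM or less in the other 8 animals. The part of those values in the result was not tested. Without saline animal 3 the rule gave 88 genes, 73 of them shared with the 75. With each other oligodendrocyte cluster given equal weight, the rule gave 48 lower genes and none higher, 44 of them shared with the 75.

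Cluster 3 was then set against each other oligodendrocyte cluster, again as a description. The root mean square of the log2 differences over the 6348 features, medians over animals, was smallest against cluster 5 at 0.259 and cluster 0 at 0.333. It was 0.434 against cluster 10, 0.491 against cluster 8, 0.533 against cluster 2 and 0.567 against cluster 1. The value against cluster 5 reached 0.739 in 1 animal, above the median of every other cluster. Over all its nuclei cluster 3 had the highest median doublet score of the 7 clusters, 0.0029 against 0.000458 to 0.00166, and the part of doublets in its position among the clusters was not tested. Of the 72 lower genes, 71 were lower than in cluster 1, 70 lower than in cluster 2, 58 lower than in cluster 0 and 33 lower than in cluster 8 in every animal with enough nuclei. Clusters 0, 1 and 2 are part of the nuclei that the rule compared with, so this side is fixed in part by the choice of genes. None was lower than in cluster 5 or cluster 10 in every animal, and 67 of the 72 had a median ratio above 0 against each of these clusters.

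**Figure D2:**
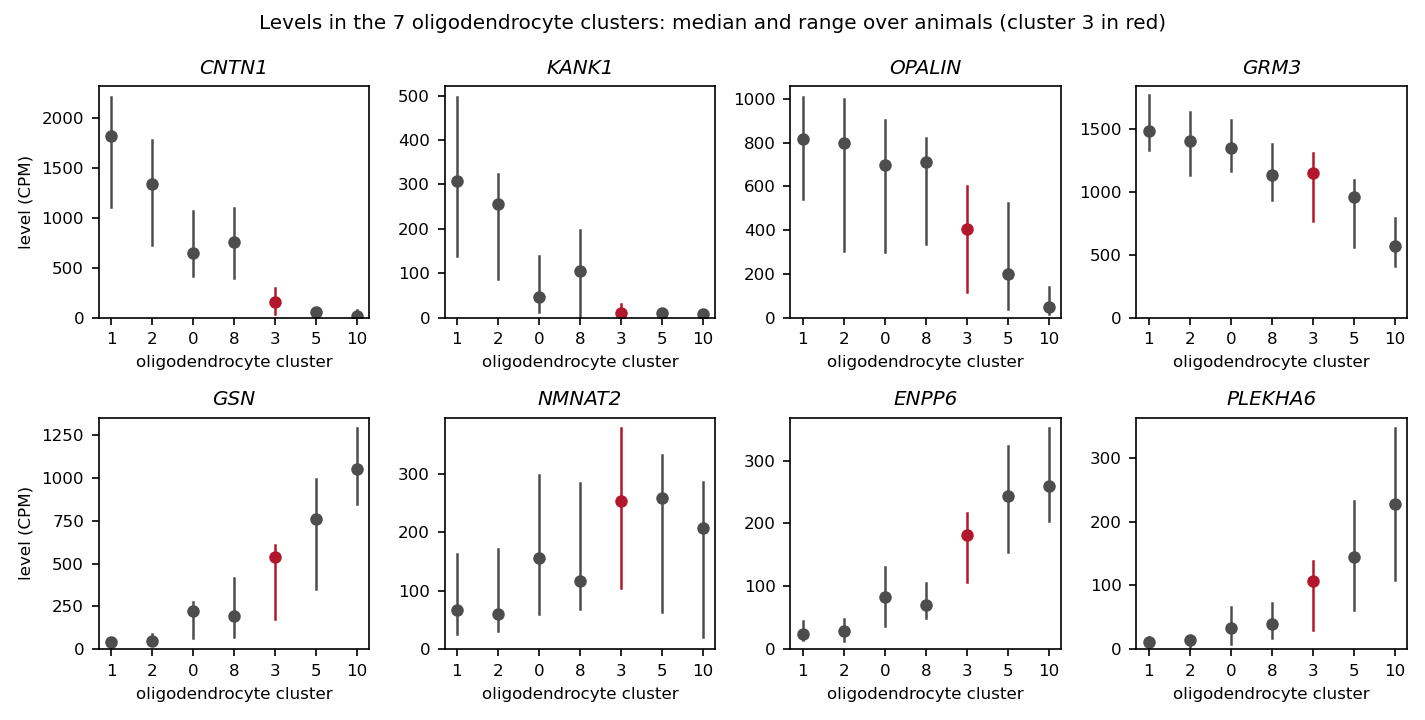
Level in CPM of 8 genes in each oligodendrocyte cluster, with clusters ordered 1, 2, 0, 8, 3, 5 and 10. The dot is the median over animals, the bar runs from the lowest to the highest animal and cluster 3 is red, lying between clusters 0 and 5 for CNTN1, OPALIN, GRM3, GSN, ENPP6 and PLEKHA6.

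Most features did not follow an order in which cluster 3 stood between these clusters. Of all 6348 features 903 lay between the mean of clusters 0, 1 and 2 and the level of cluster 5 in at least 8 animals, and of the 75 set-apart genes 59 did, a count that the choice of those genes fixes in part. The genes that follow are examples and do not stand for the rest. Median CNTN1 was 1812 CPM in cluster 1, 1339.7 in cluster 2, 647 in cluster 0, 154 in cluster 3, 56.2 in cluster 5 and 19.7 in cluster 10. OPALIN, a transmembrane protein of mature oligodendrocytes, had medians of 816, 798, 699.9, 404, 199 and 47.9 CPM in the same order of clusters. In every animal CNTN1 and OPALIN of cluster 3 lay between the mean of clusters 0, 1 and 2 and cluster 5, although over animals the OPALIN ranges of cluster 3, 115 to 601 CPM, and of cluster 5, 39 to 526 CPM, overlapped. GRM3, a metabotropic glutamate receptor, differed in smaller steps, with medians of 1484, 1400.3, 1348, 1148, 962 and 567 CPM, and the ranges of neighbouring clusters overlapped.

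Gelsolin ran the other way. Median GSN was 39.3 CPM in cluster 1, 46.2 in cluster 2, 222 in cluster 0, 536 in cluster 3, 759 in cluster 5 and 1054 in cluster 10. ENPP6 followed the same order, from 24.4 and 28.9 CPM in clusters 1 and 2 through 83 in cluster 0 and 182 in cluster 3 to 243 and 259.96 in clusters 5 and 10, where ranges of the last 3 overlapped. NMNAT2 did not: its medians were 254 CPM in cluster 3, 258 in cluster 5 and 207 in cluster 10, and cluster 3 was the highest of the compared clusters in 5 animals. KANK1 differed little between cluster 3 and the clusters beyond it, with a median of 10.7 CPM against 9.29 and 7.67 CPM in clusters 5 and 10 and 45.4 CPM in cluster 0.

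The same order held for shares of nuclei once each nucleus was thinned to 2000 UMIs, which left out 1.17% of cluster 3 and 4.48% of the other oligodendrocyte nuclei. A CNTN1 UMI was found in a median of 21.3% of cluster 3 nuclei (41.2% unthinned), 69.2% of the other oligodendrocyte nuclei (82.9% unthinned), 8.80% in cluster 5 and 3.91% in cluster 10. Myeloid nuclei, which should lack CNTN1, gave a median of 8.04% (lowest 4.65, highest 36.8%), a level that free RNA in droplets can reach. The median CNTN1 shares of clusters 5 and 10 lie near or below that median. In cluster 3 the CNTN1 share ran from 5.87 to 38.7% over animals, a range that overlaps that of myeloid nuclei. KANK1 was found in 2.35% of cluster 3, 26.5% of other oligodendrocyte and 2.10% of myeloid nuclei, so the KANK1 share in cluster 3 was close to this background. GSN was found in 61.5% of cluster 3 nuclei, 22.9% of the other oligodendrocytes, 74.8% in cluster 5 and 84.0% in cluster 10, against 21.9% of myeloid nuclei. The median GSN shares of clusters 1 and 2, 6.55 and 8.12%, lay below that of myeloid nuclei. The myeloid share is therefore not a background level for GSN. Median UMIs per nucleus before thinning were 7066 in cluster 3, 5879 in the other oligodendrocytes and 3900 in myeloid nuclei.

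The share of oligodendrocyte nuclei that fell in cluster 3 was 11.9, 11.9 and 6.05% in the saline animals, 12, 15.1 and 4.48% in the ASO animals and 11.8, 12.5 and 14.0% in the OTV animals. The means were 9.94 ± 3.37, 10.5 ± 5.45 and 12.8 ± 1.08% (SD, n = 3 each). The widest exact (Clopper-Pearson) 95% interval was that of saline animal 3, 4.70 to 7.65%, and such intervals cover counting error only. No test was made, because genes that place nuclei in clusters also differed between groups. The lowest shares came from ASO animal 3 and saline animal 3, the same animals whose astrocytes had the most LHX2. The part of that difference in the shares was not tested.

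MALAT1, the targeted RNA, was lower in cluster 3 of every treated animal than in any saline animal. It took 6.18, 6.34 and 6.01% of cluster 3 UMIs in the saline animals, 4.47, 4.20 and 5.56% in the ASO animals and 4.02, 3.44 and 2.88% in the OTV animals. The 3 groups did not overlap. The 95% counting interval (Wilson) of the highest ASO animal ended at 5.59% and that of the lowest saline animal began at 5.93%. These intervals treat UMIs as independent and leave out the variation between nuclei, so they are too narrow for the animals' levels. The means were 6.18 ± 0.165, 4.74 ± 0.717 and 3.45 ± 0.572% (SD, n = 3 each), so the ASO mean was 76.8% and the OTV mean 55.8% of the saline mean. The exact permutation test across saline, ASO and OTV (two-sided) had p = 0.00357, the smallest that this design allows, and each pair of groups reached its smallest possible exact p of 0.1.

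**Figure D3:**
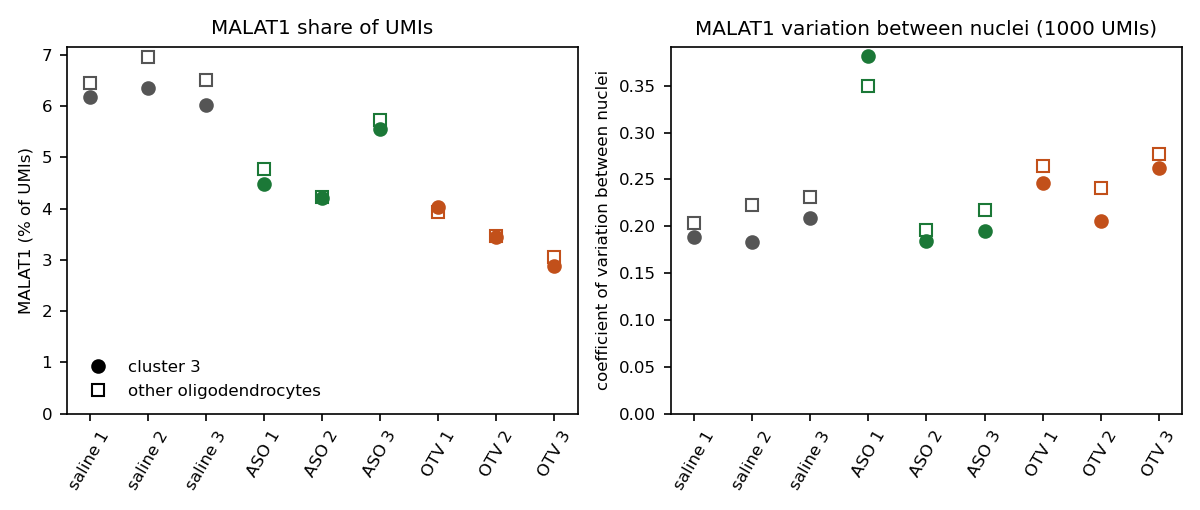
MALAT1 in cluster 3 (filled circles) and in the other oligodendrocytes (open squares) of each animal, as a percentage of UMIs on the left and as the coefficient of variation between nuclei, each thinned to 1000 UMIs, on the right. The level was highest in saline (6.01 to 6.34%), lower in ASO (4.20 to 5.56%) and lowest in OTV (2.88 to 4.02%), and the variation was highest in ASO animal 1 at 0.381.

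In the fit across all genes, edgeR's quasi-likelihood test gave a log2 change in MALAT1 of -0.78 (SE 0.14, adjusted p = 0.00404) in the OTV animals relative to saline, which passed the threshold of 0.05. For ASO against saline it gave -0.42 (SE 0.14, adjusted p = 0.348) and for OTV against ASO -0.36 (SE 0.14, adjusted p = 0.0923), neither of which passed. The adjusted p of OTV against saline ranged from 0.00019 to 0.04997 over the alternatives, and that of ASO against saline from 0.245 to 0.686. OTV against ASO passed only without OTV animal 1, at -0.47 (adjusted p = 0.0435). The other oligodendrocytes of the same animals had 6.45, 6.95 and 6.51% in the saline, 4.77, 4.22 and 5.72% in the ASO and 3.94, 3.47 and 3.05% in the OTV animals. The MALAT1 change in cluster 3 minus that in the others was 0.09 log2 units after ASO and 0.13 after OTV, both relative to saline, and 0.04 between the treatments (SE 0.06 each, adjusted p = 1.00, 0.952 and 0.95), so no difference in response was detected.

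No difference between the 3 groups was detected in how evenly MALAT1 lay among nuclei. The coefficient of variation between cluster 3 nuclei beyond counting noise, each nucleus thinned to 1000 UMIs, was 0.188, 0.183 and 0.209 in the saline animals, 0.381, 0.184 and 0.195 in the ASO animals and 0.247, 0.206 and 0.262 in the OTV animals. ASO animal 1 was the highest, while the other ASO animals lay within the saline range. Across saline, ASO and OTV the two-sided exact permutation p was 0.611, and 0.104 without ASO animal 1. The pair of OTV and saline gave an exact p of 0.2. Thinned to 2000 UMIs, the values were 0.181, 0.183 and 0.189 in the saline, 0.379, 0.188 and 0.186 in the ASO and 0.249, 0.210 and 0.261 in the OTV animals, with an exact permutation p of 0.536 across the 3 groups. At this depth every OTV animal lay above every saline animal.

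TFRC, the receptor that the transport vehicle binds, was low in cluster 3. It stood at 12.1, 12.5 and 3.34 CPM in the saline animals, 10.7, 12.7 and 10.2 in the ASO animals and 11.6, 18.8 and 12.6 in the OTV animals, and the ranges of all groups overlapped. The log2 change was 0.36 (SE 0.31, adjusted p = 0.5) after OTV and -0.04 (SE 0.30, adjusted p = 1) after ASO.

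After ASO few genes of cluster 3 passed the test. Of 14351 genes tested 48 were called at an adjusted p under 0.05 by edgeR's quasi-likelihood test, 17 higher (0.118%) and 31 lower (0.216%), and 1286 had an unadjusted p under 0.05. The count fell to 25 without ASO animal 1 and to 27 without ASO animal 2, was 161 with the DESeq2 Wald test and was 19 without the 3 animals whose astrocytes held over 10 CPM of LHX2, with 9 shared. In that last fit saline animal 2 stood alone for its group and was assumed to vary like the others. Nothing says whether animals were handled on separate days, so the p-values measure the spread between these animals.

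The higher genes included a hormone receptor and microtubule genes. Here and below, genes named by rule for a treatment change were picked among called genes without overlap between the compared groups. Lack of overlap between those groups thus follows from the choice and adds no support. GIPR, the receptor of the gut hormone GIP, stood at 0.295, 0.954 and 0 CPM in the saline animals, 49, 40.9 and 28.2 in the ASO animals and 0.44, 0.855 and 0.342 in the OTV animals. The 3 ASO animals lay above all 6 others, and the log2 change against saline was 5.89 (SE 0.44, adjusted p = 0.000107), called in every alternative run that tested GIPR. AGBL3, which trims glutamate chains from tubulin, stood at 9.87, 7.39 and 6.67 CPM in the saline animals, 37.9, 23.2 and 36 in the ASO animals and 8.36, 9.4 and 13 in the OTV animals, and KIF6, a kinesin motor, at 203, 189 and 224 CPM in the saline animals, 362, 355 and 445 in the ASO animals and 168, 211 and 197 in the OTV animals. For both genes the ASO animals lay above all others, with log2 changes of 1.87 (SE 0.28, adjusted p = 0.015) and 0.89 (SE 0.13, adjusted p = 0.015). AGBL3 lost the call without ASO animal 1, without saline animal 2 and without the 3 animals with high astrocyte LHX2 (adjusted p up to 0.224). KIF6 lost it without saline animal 1, without saline animal 2, without those 3 animals and with thinned sums (adjusted p up to 0.197). CD274, the immune checkpoint ligand PD-L1, stood at 6.34, 6.32 and 3.34 CPM in the saline animals, 25.4, 16.2 and 45.6 in the ASO animals and 9.1, 10.3 and 6.49 in the OTV animals, again with no overlap, and rose by 2.13 (SE 0.38, adjusted p = 0.0381). SGCB, a sarcoglycan of the dystrophin complex, rose by 1.21 (adjusted p = 0.0246), OAZ2, an inhibitor of polyamine synthesis, by 1.01 (adjusted p = 0.0318), EML2, a microtubule-associated protein, by 0.78 (adjusted p = 0.028) and HEG1, a transmembrane receptor, by 1.26 (adjusted p = 0.0387). CD274, SGCB, OAZ2, EML2 and HEG1 each lost the call in 6 or more alternatives. HEG1 was about as high in the OTV animals, at 61.6, 51.7 and 69 CPM. It stood at 57.8, 65.7 and 49.2 CPM in the ASO animals and 29.6, 18.7 and 20 CPM in the saline animals.

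Of the lower genes named by rule, DTX1 and TUSC3 were lower after OTV too, and ND5, COX2 and CYTB belong to the mitochondrial genome, described below. DTX1, a ubiquitin ligase of the Notch pathway, stood at 26.8, 24.6 and 6.67 CPM in the saline animals, 1.3, 0.622 and 0.6 in the ASO animals and 0.44, 1.28 and 1.03 in the OTV animals. Saline animals 1 and 2 held the most and all 6 treated animals lay below all 3 saline animals, with changes of -4.68 (SE 0.48, adjusted p = 0.00143) after ASO and -4.75 (SE 0.52, adjusted p = 0.000282) after OTV. In the other oligodendrocytes saline animal 3 held 1.11 CPM of DTX1, within the range of the treated animals, 0.534 to 1.53 CPM. The DTX1 level of saline animal 3 in cluster 3 rests on few UMIs. TUSC3, a subunit of the oligosaccharyltransferase, stood at 31.5, 41.7 and 40 CPM in the saline animals, 8.5, 7.81 and 8.4 in the ASO animals and 5.72, 9.83 and 8.89 in the OTV animals, and changed by -2.21 (SE 0.24, adjusted p = 0.00247) after ASO and -2.18 (SE 0.25, adjusted p = 0.000339) after OTV, again with no overlap. Without the 3 animals with high astrocyte LHX2 the adjusted p of TUSC3 after ASO was 0.0653. The ASO and OTV comparisons share the saline animals, so these pairs of changes are not independent.

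An axon guidance receptor was lower after ASO, and higher after OTV than after ASO. ROBO1, which binds the Slit guidance cues, stood at 179, 279 and 384 CPM in the saline animals, 99.3, 60.3 and 67.2 in the ASO animals and 172, 226 and 184 in the OTV animals. The ASO animals lay below all others, with a log2 change of -1.86 (SE 0.26, adjusted p = 0.015) after ASO, -0.42 (SE 0.25, adjusted p = 0.326) after OTV and 1.44 (SE 0.26, adjusted p = 0.00314) from ASO to OTV. The ROBO1 call after ASO was lost without ASO animal 2, without ASO animal 3, without saline animal 2 and without the 3 animals with high astrocyte LHX2 (adjusted p up to 0.0743). SGIP1, a regulator of endocytosis, changed by -1.69 (adjusted p = 0.00686), EFCAB5, a protein with a calcium-binding domain, by -2.46 (adjusted p = 0.00769) and OLFML2A, an extracellular matrix protein, by -3.84 (adjusted p = 0.00462). OLFML2A and EFCAB5 were not called after OTV, at 0.20 (adjusted p = 0.783) and 0.65 (adjusted p = 0.188), and both were higher after OTV than after ASO, by 4.04 (adjusted p = 0.000153) and 3.10 (adjusted p = 9.65e-05). The call after ASO was lost for SGIP1 with thinned sums (adjusted p = 0.166), for EFCAB5 with thinned sums and without the 3 animals with high astrocyte LHX2 (adjusted p up to 0.213), and for OLFML2A without those 3 animals (adjusted p = 0.0596).

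After OTV 1823 genes of cluster 3 were called against saline by edgeR's quasi-likelihood test, 649 higher (4.52%) and 1174 lower (8.18%), with 3924 at an unadjusted p under 0.05. The median log2 change over all genes was 0.01. The count was 981 without saline animal 1, 909 without saline animal 2 and 1093 without OTV animal 3. It was 308 when every sum was thinned to the smallest total, 278 of them shared. Without the 3 animals with high astrocyte LHX2 it was 670, with 626 shared.

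**Figure D4:**
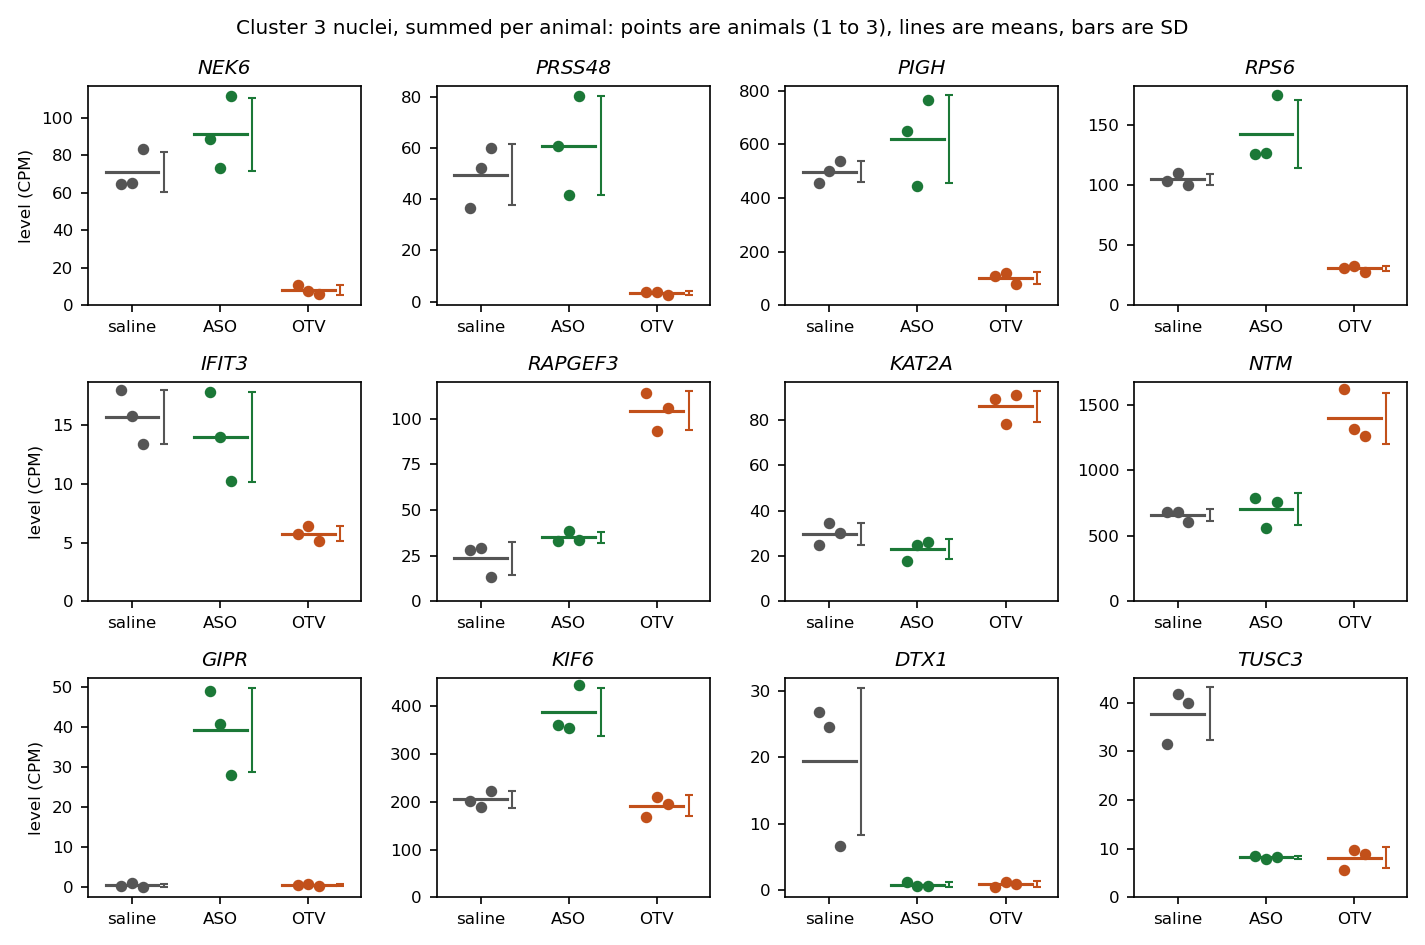
Level in CPM in cluster 3 of 12 genes named for a treatment change. Points are animals 1 to 3 of each group, lines are means and bars are SD. NEK6, PRSS48, PIGH, RPS6 and IFIT3 are lowest in the OTV animals, RAPGEF3, KAT2A and NTM are highest there, GIPR and KIF6 are highest in the ASO animals, and DTX1 and TUSC3 are low in both treated groups.

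The lower genes included a kinase, a lipid-anchor enzyme and a ribosomal protein. NEK6, a kinase of the mitotic spindle, stood at 64.7, 65.3 and 83.4 CPM in the saline animals, 88.7, 73.2 and 112 in the ASO animals and 11, 7.69 and 6.15 in the OTV animals. The 3 OTV animals lay far below all others, with a log2 change of -2.93 (SE 0.24, adjusted p = 6.99e-05). PIGH, a subunit of the enzyme that starts GPI anchor synthesis, stood at 458, 499 and 537 CPM in the saline animals, 649.8, 444 and 765 in the ASO animals and 109, 119.6 and 79.3 in the OTV animals, and changed by -2.21 (SE 0.20, adjusted p = 9.5e-05). PRSS48, a serine protease, stood at 36.7, 52.2 and 60.1 CPM in the saline animals, 60.8, 41.8 and 80.4 in the ASO animals and 3.67, 3.85 and 2.39 in the OTV animals, and changed by -3.75 (SE 0.31, adjusted p = 6.99e-05). Neither gene overlapped between OTV and the other groups. RPS6, a ribosomal protein that growth signals phosphorylate, stood at 104, 109.7 and 100.1 CPM in the saline animals, 126, 127 and 175 in the ASO animals and 31, 32.9 and 28 in the OTV animals, with a change of -1.72 (SE 0.16, adjusted p = 9.92e-05) and no overlap. The further lower genes named by rule were DNAH14, a dynein heavy chain, at -2.53, MAMDC2 at -2.99, RNF121, a ubiquitin ligase, at -2.04, RANBP3L at -2.99, INSYN2A, a protein of inhibitory synapses, at -2.55 and FILIP1L at -2.13. Their adjusted p lay between 9.5e-05 and 0.000273.

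The higher genes after OTV included RAPGEF3, KAT2A and NTM. RAPGEF3, a cAMP-activated exchange factor also called EPAC1, stood at 28, 29.2 and 13.3 CPM in the saline animals, 33.2, 38.6 and 33.6 in the ASO animals and 114, 93.1 and 106 in the OTV animals. All OTV animals lay above all others, and the log2 change was 2.02 (SE 0.20, adjusted p = 0.000175). KAT2A, the histone acetyltransferase GCN5, stood at 24.9, 34.5 and 30 CPM in the saline animals, 18, 24.8 and 26.4 in the ASO animals and 89.3, 78.2 and 90.9 in the OTV animals, and NTM, the adhesion molecule neurotrimin, at 683, 681 and 604 CPM in the saline animals, 785, 563 and 761 in the ASO animals and 1621, 1313 and 1261 in the OTV animals. Neither overlapped, with changes of 1.59 (SE 0.20, adjusted p = 0.000539) and 1.15 (SE 0.15, adjusted p = 0.000674). MYO9B, an unconventional myosin, IPO13, a nuclear transport receptor, ADAP1, PACS2, a sorting protein, SMPD4, a sphingomyelinase, and TMEM259 changed by 1.07, 1.34, 1.12, 1.18, 1.19 and 1.19, with adjusted p between 0.000358 and 0.000686. Of the 20 genes named for OTV against saline 18 kept their call in every alternative run that tested them, and IPO13 and SMPD4 lost it only with thinned sums.

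Directly between the treatments 2888 genes were called by edgeR's quasi-likelihood test, 1227 higher (8.55%) and 1661 lower (11.6%) after OTV than after ASO, with 4864 at an unadjusted p under 0.05. The count was 1901 without OTV animal 3, 500 with thinned sums and 1923 without the 3 animals with high astrocyte LHX2. FSTL1, a secreted follistatin-like protein, was the gene outside the mitochondrial genome with the largest rise among those named, at 0.709, 0.277 and 0.6 CPM in the ASO animals and 26.1, 12.4 and 11.3 CPM in the OTV animals, a log2 change of 5.21 (SE 0.50, adjusted p = 7.28e-05). Its saline animals stood in between at 5.01, 5.72 and 6.67 CPM. ASB14, a substrate adaptor of ubiquitin ligases, stood at 18.5, 17.7 and 24.6 CPM in the ASO animals and 1.76, 1.71 and 1.37 CPM in the OTV animals, a change of -3.49 (SE 0.29, adjusted p = 3.2e-05), and HEATR4 changed by -2.71 (SE 0.24, adjusted p = 4.67e-05). NEK6, PRSS48, PIGH, RPS6, DNAH14, RNF121 and MAMDC2 were lower and KAT2A, PACS2 and TMEM259 higher in this comparison as well, from -4.05 for PRSS48 to 2.01 for KAT2A.

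The genes that set cluster 3 apart were also followed across treatments. Of the 75 set-apart genes 1 was lower after ASO, a feature without a symbol, and none higher, against 0.216 and 0.118% of all genes. After OTV 2 of the 75 were higher and 1 was lower, against 4.52 and 8.18% of all genes, among them PLEKHA6, which was higher by 1.17 (SE 0.33, adjusted p = 0.0444). The median log2 change of the 75 was -0.60 after ASO and -0.17 after OTV, against 0.02 and 0.01 over all genes. Both medians are relative to a saline group that includes saline animal 3. There the 72 lower genes had a median ratio of -0.68 to the other oligodendrocytes, against -1.47 to -1.96 in the other animals. The part of saline animal 3 in these medians was not tested. Between OTV and ASO 7 of 75 were called, all higher, against 8.55% of all genes: CDH7, ERC2, LRFN5, FRY, SEMA3C, NOL4 and a feature without a symbol. ERC2 in cluster 3 stood at 141, 89.1 and 377 CPM in the saline animals, 15.8, 22.9 and 15.6 in the ASO animals and 38, 72.6 and 132 in the OTV animals, and the log2 change from ASO to OTV was 2.18 (SE 0.63, adjusted p = 0.0469). The ASO animals were the lowest and saline animal 3 the highest.

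The gene lists here and below were chosen with earlier results of these data known, so their counts beside the shares of all genes are a description. Of 16 myelin genes tested, none was called after ASO, when only 0.118% of all genes were higher and 0.216% lower. After OTV 2 of the 16 were higher and 2 lower than saline, against 4.52 and 8.18% of all genes. The lower pair was OPALIN, at 404, 439 and 601 CPM in the saline animals, 493, 236 and 568 in the ASO animals and 122, 232 and 115 in the OTV animals, with a log2 change of -1.54 (SE 0.36, adjusted p = 0.0272), and CLDN11, the claudin that seals myelin, at 564, 418 and 307 CPM in the saline animals, 443, 513 and 705 in the ASO animals and 266, 238 and 228 in the OTV animals, with -0.78 (SE 0.22, adjusted p = 0.0427). The OTV animals lay below all saline animals for both genes, and OPALIN in ASO animal 2 came close to the highest OTV animal. The higher pair was HAPLN2, a link protein of the matrix at nodes of Ranvier, at 719, 734 and 581 CPM in the saline animals, 751, 520.1 and 723 in the ASO animals and 1149, 952 and 1830.5 in the OTV animals, with 1.00 (SE 0.23, adjusted p = 0.0161), and CNTN2, a contactin of the region beside the node, at 287, 328 and 347 CPM in the saline animals, 349, 332 and 355 in the ASO animals and 423, 439.7 and 436 in the OTV animals, with 0.51 (SE 0.11, adjusted p = 0.0105). The OTV animals lay above all others for both genes. MAG, MOBP and CNP were not called, with changes of 0.11, 0.58 and 0.01. MYRF, the transcription factor that drives myelination, rose by 0.64 (adjusted p = 0.0157) and was the only 1 of 9 oligodendrocyte transcription factors called. Between OTV and ASO 4 of the 16 myelin genes were lower, OPALIN, CLDN11, MOG and MAL, and 2 higher, CNTN2 and HAPLN2, against 11.6 and 8.55% of all genes.

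Interferon and antigen presentation genes were lower after OTV in 3 of 8 tested, against 8.18% of all genes, with a list median of -0.84 against 0.01. IFIT3, an interferon-induced protein, stood at 18, 15.7 and 13.3 CPM in the saline animals, 17.8, 14 and 10.2 in the ASO animals and 5.72, 6.41 and 5.13 in the OTV animals. The OTV animals lay below all others, with a log2 change of -1.46 (SE 0.28, adjusted p = 0.00584). B2M, the light chain of MHC class I, changed by -1.22 (SE 0.36, adjusted p = 0.0491). B2M in saline animal 3, at 6.67 CPM, lay below the OTV animals. After ASO CD274 was the only 1 of the 8 called, higher, against 0.118% of all genes.

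The ribosomal protein genes called after OTV were all lower. Of 37 tested, 7 were lower than saline and none higher, RPS6, RPLP0, RPL24, RPL9, RPS12, RPS13 and RPS27L, against 8.18% of all genes, with a list median of -0.79. Their summed level in cluster 3 was 1100, 978 and 571 CPM in the saline animals, 960, 1635 and 1469 in the ASO animals and 748, 497 and 468 in the OTV animals. The ranges of OTV and saline overlapped because of saline animal 3, and every OTV animal was below the lowest ASO animal. Between OTV and ASO 16 of 37 were lower, against 11.6% of all genes (median -1.06). After ASO none of 37 was called (median 0.44), when only 0.118% of all genes were higher and 0.216% lower. Nuclear genes of the respiratory chain had 5 of 41 lower and 1 higher, NDUFA10, after OTV (median -0.48), against 8.18 and 4.52% of all genes. Between OTV and ASO 13 of the 41 were lower and none higher, against 11.6 and 8.55%. None of the 41 was called after ASO (median 0.25), against the same 0.118 and 0.216% of all genes.

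**Figure D5:**
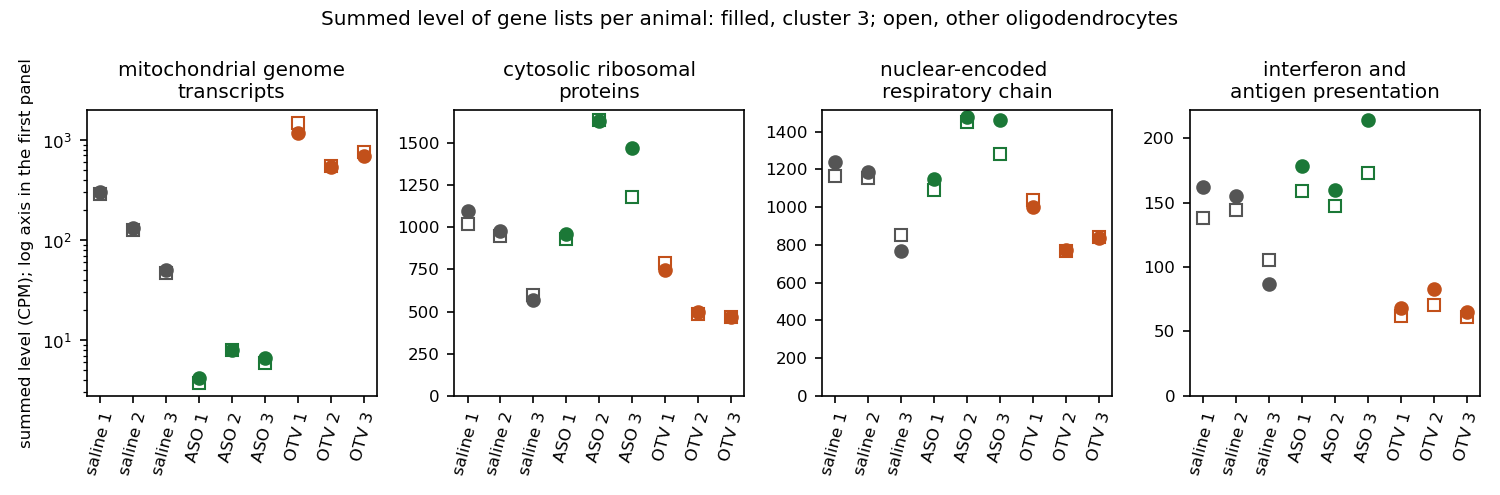
Summed level in CPM of 4 gene lists in each animal, filled circles for cluster 3 and open squares for the other oligodendrocytes. The first panel, transcripts of the mitochondrial genome, has a log axis and runs from 4.13 CPM in ASO animal 1 to 1173 CPM in OTV animal 1, and over the other oligodendrocytes from 3.75 to 1467 CPM in the same animals.

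Of the gene lists examined, transcripts of the mitochondrial genome had the largest median changes. Their summed level in cluster 3 was 301, 131 and 50.1 CPM in the saline animals, 4.13, 7.95 and 6.60 CPM in the ASO animals and 1173, 536 and 693 CPM in the OTV animals. The 3 groups did not overlap, and the other oligodendrocytes had 286, 127 and 47.1, then 3.75, 8.04 and 5.87, then 1467, 549 and 759 CPM. Mitochondria lie outside the nucleus, and the part of RNA carried over from the cytoplasm in these values, or in those of the other gene groups, was not tested. Of 12 tested, 7 were lower after ASO and 9 higher after OTV, and all 12 were higher in OTV than in ASO, against 0.216, 4.52 and 8.55% of all genes. The list medians were -5.50, 2.21 and 7.40, or -4.93 and 7.16 for the comparisons with ASO when genes at 0 in all ASO animals were set to their bound. ND4, a subunit of complex I, was at 0 UMIs in all ASO animals, which with a floor of 3 UMIs over the group makes it at least 124-fold lower than saline and at least 608-fold lower than OTV. These bounds rest on UMIs pooled over the animals of a group. ND4 was not among the 7 genes called after ASO, though it was called between OTV and ASO. CYTB, of complex III, had 1 UMI in the ASO animals against 385 in the saline animals, a ratio of 612 (95% counting interval 109 to 24231). The CYTB call after ASO was lost in 4 of 18 alternatives: without ASO animal 1, without ASO animal 2, with thinned sums and with no filter. COX2 lost its call after ASO in the first 3 of these. COX1, of complex IV, stood at 14.6, 5.96 and 3.34 CPM in the saline animals, 1.06, 1.8 and 3 in the ASO animals and 44.4, 35.5 and 42 in the OTV animals, with the OTV animals above all others. ND5, of complex I, had 1 UMI in the ASO animals against 74 in the saline animals, a ratio of 118 (95% counting interval 20.5 to 4707), and rose by 2.85 (adjusted p = 0.000273) after OTV.

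For the remaining lists the shares of all genes to read the counts against were 4.52% higher and 8.18% lower after OTV, 0.118 and 0.216% after ASO and 8.55 and 11.6% between OTV and ASO. After OTV the cholesterol list had 1 of 19 called, SQLE, lower, the heat shock list 1 of 8, BAG3, lower, the p53 list 1 of 6, TP53INP1, lower, and the mature oligodendrocyte state list 2 of 12, OPALIN and APOD, both lower. The adhesion list had 2 of 15 higher, CNTN2 and LINGO1, an inhibitor of myelination at 2.36, 1.55 and 0 CPM in the saline animals, 3.9, 4.08 and 1.8 in the ASO animals and 18.5, 12 and 10.9 in the OTV animals. The OTV animals lay above all others for LINGO1, with a change of 2.96 (SE 0.45, adjusted p = 0.00148). The iron list (10 tested) and the newly formed oligodendrocyte list (8 tested) had none called. Among markers of other cells GAD1 of 9 neuron markers and SKAP1 of 6 vascular and T cell markers were lower after OTV, and none of 8 astrocyte, 7 OPC or 7 myeloid markers was called. After ASO 1 of 15 genes of the adhesion list was called, lower, and no gene was called on the transcription factor, newly formed, mature state, heat shock, cholesterol, p53, iron or marker lists. Between OTV and ASO the adhesion list had 6 of 15 higher (median 0.91), among them NFASC, CNTN2, CTNNA2, NCAM1 and LINGO1.

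Responses of cluster 3 were compared with those of the other oligodendrocytes of the same animals through the interaction of nuclei and treatment, with animal as a block. Of 16600 genes tested by edgeR's quasi-likelihood test, 19 (0.114%) differed in their response to ASO, 14 (0.0843%) in their response to OTV and 39 (0.235%) between the treatments, with 816, 839 and 1150 at an unadjusted p under 0.05. Without the block no gene was called in any of the 3. NEK6 had mean levels of 71.1, 91.2 and 8.28 CPM in cluster 3 and 79.6, 94.9 and 23.7 CPM in the other oligodendrocytes of the saline, ASO and OTV animals. In the OTV animals it stood at 11, 7.69 and 6.15 CPM in cluster 3 and 24.4, 29.3 and 17.4 CPM in the others. Its change after OTV in cluster 3 minus that in the others was -1.08 (SE 0.16, adjusted p = 0.000302) log2 units. LRRTM3, a synaptic adhesion molecule, had means of 446, 628 and 104 CPM in cluster 3 and 524, 633 and 180.2 CPM in the others, a difference in the change of -0.57 (SE 0.09, adjusted p = 0.00236). For both genes cluster 3 lay below the others in every OTV animal, and the LRRTM3 call was lost without saline animal 2.

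The response to ASO differed for a transcription factor and an enzyme. KLF12, a Krüppel-like repressor, stood at 29.8, 72.4 and 66.7 CPM in cluster 3 of the saline animals and 15.6, 10.6 and 22.2 CPM in that of the ASO animals, and at 55.9, 109 and 119.7 and 55, 37.9 and 72.4 CPM in the other oligodendrocytes. The difference in the change was -1.08 (SE 0.12, adjusted p = 3.49e-07). DPYD, which degrades pyrimidines, had means of 207, 94 and 154 CPM in cluster 3 and 266, 190.4 and 186 CPM in the others of the saline, ASO and OTV animals, a difference of -0.73 (SE 0.08, adjusted p = 4.01e-07) after ASO. For both genes the ASO animals had the lowest mean in cluster 3. FLRT2, an adhesion molecule of the fibronectin leucine-rich family, had means of 146, 146 and 277 and 59.9, 79.1 and 171 CPM, and its change after OTV was -0.57 (SE 0.10, adjusted p = 0.00465) log2 units relative to the others. The FLRT2 call was lost without saline animal 2 and without saline animal 3. Of the 75 set-apart genes 0, 2 and 1 had a different response to ASO, to OTV and between the treatments, against 0.114, 0.0843 and 0.235% of all genes.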

How the data were processed

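Nuclei were isolated from frozen thalamus, sorted and run on 10x Genomics, per the labels' protocols. The deposited matrices hold raw UMI counts per nucleus, and a deposited table gives cell type, cluster number and a doublet score, a fraction that the authors assigned to each nucleus. The submitters' processing notes name Cell Ranger 6.1.2, Seurat 4 and GRCh38.p13, with no role stated, while the features carry cynomolgus Ensembl identifiers. Of 29128 features 14893 have a symbol, and 0 columns of per-sample values were left unused. Some genes are not reported here.

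Counts were summed per animal over the nuclei of cluster 3 and fitted with edgeR 4.0.16 (limma 3.58.1, R 4.3.3): TMM factors, filterByExpr, robust quasi-likelihood test, Benjamini-Hochberg adjustment over all genes tested, threshold 0.05, all 9 animals in 1 fit. Differences in response were the interaction of nuclei (cluster 3 or other oligodendrocytes) and treatment, with animal as a block. DESeq2 1.42.0 was an alternative. Every nucleus is marked a singlet in the deposited table, and none was removed. Named genes were, per comparison, up to 10 in each direction with the smallest adjusted p among called genes without overlap between groups, 5 for differences in response, the 10 largest ratios among set-apart genes, MALAT1, TFRC and called or abundant members of the gene lists. The members and lists were chosen with earlier results of these data known. Each fit was tested on simulated data for OTV against saline. In cluster 3, 20% of genes changed by 1 log2 unit and 69% of those changed by 2 were recovered (14250 genes). For the difference in response the values were 6% and 38% (16428 genes). In that simulation cluster 3 and the other oligodendrocytes were drawn independently, with no effect shared within an animal. Its values therefore do not describe recovery in real data, where the parts of an animal vary together.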

Additional observations from a re-analysis of the deposited data

Results flagged for a closer look

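Named genes whose change differed between cluster 3 and the other oligodendrocytes of the same animals are given here with the change in cluster 3 minus the change in the others, in log2 units, each past an adjusted p of 0.05 in edgeR's quasi-likelihood test with animal as a block. For ASO against saline CDYL2 had 3.07, TMEM132C 2.50 and LRCH1 0.70, and BTNL8 had -1.61, ADAMTS17 -1.50, KLF12 -1.08, EPHA4 -0.84 and DPYD -0.73. For OTV against saline CDYL2 had 2.66, LUZP2 1.37, FCHSD2 0.81, NALF1 0.59 and MACROD2 0.34, and NEK6 had -1.08, NECAB1 -0.87, SYNE2 -0.83, FLRT2 -0.57 and LRRTM3 -0.57. For OTV against ASO ADAMTS17 had 1.44, KLF12 1.04, LDLRAD4 0.91, COL5A2 0.84 and DPYD 0.80, and NEK6 had -1.28, NECAB1 -0.94, LRRTM3 -0.78, DGKG -0.51 and IL1RAPL1 -0.35. Without the animal block none of these calls was made. Over the 13 alternatives, that one included, the OTV against saline call was lost in 7 for MACROD2, 6 for FCHSD2, 5 for NALF1, 4 each for CDYL2 and NECAB1, 3 each for LUZP2, FLRT2 and SYNE2, 2 for LRRTM3 and 1 for NEK6. LRCH1 lost the ASO against saline call in 4, and the other genes of that comparison and of OTV against ASO lost theirs in 1 or 2. CDYL2 rests on few UMIs in cluster 3, with means of 0.414, 2.26 and 2.91 CPM in the saline, ASO and OTV animals against 11.5, 3.47 and 6.73 CPM in the others. The comparisons share animals, so a gene listed in more than 1 of them is not independent evidence.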

How the results depend on the processing

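No result reversed. Genes called for ASO against saline numbered 161 with the DESeq2 Wald test, 107 with no filter, 22 with sums thinned to the smallest total, 19 without the 3 animals with high astrocyte LHX2 (added after seeing the data) and 25 to 56 with each animal left out in turn. For OTV against saline they numbered 308 thinned, 670 without those 3 animals and 909 to 1841 with each animal left out. For OTV against ASO they numbered 500 thinned, 1923 without those 3 animals and 1901 to 3272 with each animal left out, and MALAT1 ranged from -0.47 to -0.22. Without the replicate block, that is with animal left out of the model, 0 genes differed in response in each comparison, against 81, 59 and 133 with no filter and 14 to 27, 9 to 18 and 24 to 53 with each animal left out. Treatment groups share no numbering that pairs animals. Equal weight for the other clusters gave 48 set-apart genes, and leaving out cluster 8 gave an OTV share of 14.0%. Of the named genes 3 of 18 (ASO against saline), 18 of 20 (OTV against saline) and 19 of 20 (OTV against ASO) kept their call in all alternatives that tested them. A run whose filter removed a gene was not counted for it. For ASO against saline DTX1 was tested in 16 of 18 alternatives and GIPR and ND5 in 17, and these are the 3 genes that kept their call. Of those named for a difference in response 0 of 9, 0 of 10 and 0 of 10 kept it, and none was called without the block. Depth limits saline animal 3 most, with 299673 UMIs.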
